A study of Homo sapiens with 7 samples.

Results

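The 37 genes described here encode the enzymes of glycolysis and of the pentose phosphate pathway, and the carriers that move glucose, lactate and amino acids across the cell membrane. They were taken by name from 8 steps of these pathways, out of 19974 protein-coding genes on chromosomes 1 to 22 and X. No measured value enters the rule, but the set was chosen with earlier results of these data known. Each gene was located by its RefSeq span on GRCh38.p14 (hg38), and peaks of the transcription factor RUNX2 and regions of the histone mark H3K27ac were counted within 1 kb of either end of the span and within the span plus 10 kb on each side. In what follows, bound means that a RUNX2 peak reached the window at a gene end, and acetylated means that an H3K27ac region did.

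Glycolysis splits glucose into pyruvate, which is either reduced to lactate and exported or burned in mitochondria. The pentose phosphate pathway diverts part of the glucose to ribose for nucleotides and to NADPH for biosynthesis. Activated and leukemic T cells are known to run glycolysis at a high rate even when oxygen is plentiful, and they take up glutamine and large neutral amino acids through dedicated carriers. RUNX2 is a Runt-domain factor best known from bone formation, its family recognises the core sequence TGTGGT, and H3K27ac marks active promoters and enhancers.

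RUNX2 (antibody D1H7) and H3K27ac (antibody ab4729) were mapped by chromatin immunoprecipitation and sequencing in KARPAS-45 and PER-117, both established lines of T-cell acute lymphoblastic leukemia (T-ALL). KARPAS-45 was kept in medium with 20% serum and PER-117 in medium with 10% serum, and chromatin of both was fixed with 1.1% formaldehyde for 10 min. The series has 7 samples: 3 inputs and 4 precipitated libraries, each of the 4 with its own peak list. No gene was deleted and no agent was added in any group that the labels describe.

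With 1 library per line and antibody there were no replicates, so no test between the lines was made, and each difference given is one between libraries. Line, serum and library cannot be told apart. KARPAS-45 had the longer lists, with 42911 RUNX2 peaks and 167 Mb of H3K27ac, against 21027 peaks and 76.2 Mb of H3K27ac for PER-117. Depth was not analysed here, so a site missing from a list is one that was not called, and the longer KARPAS-45 lists can raise any count of that line. Fold enrichments are the authors' values and rank peaks within 1 list only. The T-cell label fitted the marks: 7 of 7 T-lineage markers were acetylated in each line, 0 of 5 myeloid, 0 of 3 erythroid and 0 of 4 non-blood markers were, and of the B-lineage markers CD79A and CD79B were acetylated in both lines and MS4A1 and PAX5 in neither.

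H3K27ac was present at the ends of most of the 37 genes. It was found at 32 genes in KARPAS-45 (86.5%, Wilson 95% interval 72 to 94.1, for counting error only), where 61% of all protein-coding genes were acetylated. In PER-117 it was found at 31 genes (83.8%, 68.9 to 92.3), against 55.5% of all. The 30 genes acetylated in both lines were 81.1% of the set, and 51.9% of all genes shared that state. Across all 8 steps the exceptions were few: FBP1, a gluconeogenic enzyme, and PDK2, a pyruvate dehydrogenase kinase, were acetylated in KARPAS-45 only (9.18% of all genes), GPI, which isomerises glucose 6-phosphate, in PER-117 only (3.63%), and FBP2, HK1, PFKFB2 and PFKFB4 in neither (35.3%). With only the widest KARPAS-45 regions kept, to the same covered length as in PER-117, 18 members were acetylated in KARPAS-45, against 16% of all genes, so the order of the lines cannot be read from these counts.

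RUNX2 was called at the ends of 28 of the 37 genes in KARPAS-45 (75.7%, 59.9 to 86.6), against 48.3% of all protein-coding genes. In PER-117 it was called at 18 genes (48.6%, 33.4 to 64.1), against 32.5% of all. Those 18 were bound in both lines, a state shared by 29.2% of all genes. A further 10 were bound in KARPAS-45 only (27%, against 19.2% of all genes), 0 in PER-117 only (3.35% of all), and 9 in neither (48.3% of all). When the KARPAS-45 list was shortened to the length of the PER-117 list, strongest peaks first, KARPAS-45 also had 18 bound genes, against 27.6% of all, and 15 genes were bound in both lines.

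Acetylated genes of any kind were often bound, and against that background the set stood less apart. Of the 30 members acetylated in both lines, 27 were bound in KARPAS-45 (90%, 74.4 to 96.5), and of all 10359 such protein-coding genes 81.4% were. In PER-117 18 of the 30 were bound (60%, 42.3 to 75.4), and of all such genes 59.1%. Both shares of all genes lie inside the intervals of the members, so no difference from acetylated genes in general was detectable with 30 genes. Bound in both lines were 18 of the 30 (54.5% of all such genes), in KARPAS-45 only 9 (26.9%), in PER-117 only 0 (4.59%) and in neither 3 (14%), which were HK2, PDHA1 and PFKP. Of 26 further pathway genes acetylated in both lines, the bar plot of shares gives 88.5% bound for KARPAS-45 against 65.4% for PER-117.

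**Figure D1:**
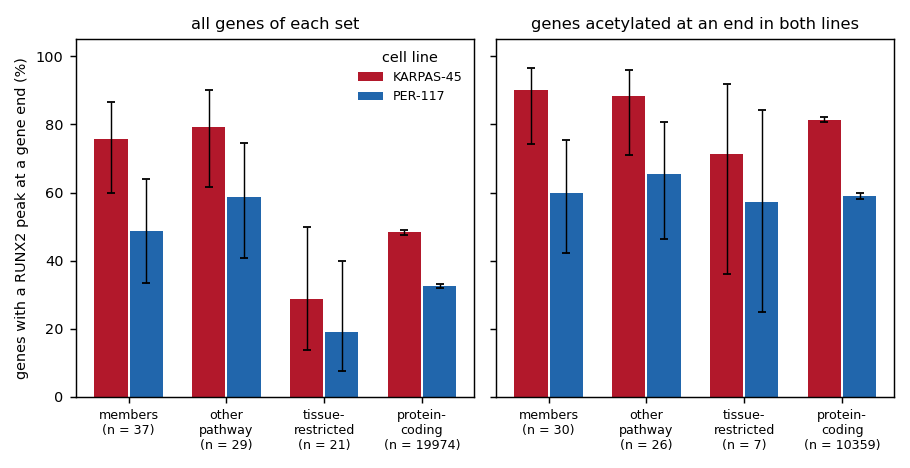
Share of genes with a RUNX2 peak at a gene end (%, y axis) in KARPAS-45 (red) and PER-117 (blue) for the 37 members, 29 other broadly expressed pathway genes, 21 tissue-restricted forms and all protein-coding genes. Left, all genes of each set, and right, those acetylated at an end in both lines. Bars are shares of 1 library each and error bars are Wilson 95% intervals. On the left the members stand above all protein-coding genes (75.7% against 48.3% in KARPAS-45), and on the right in PER-117 they stand beside them (60% against 59.1%).

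Where both lines had a gene-end peak, the peaks lay at the same place. All 18 members bound in both lines had overlapping gene-end peaks, as did 5445 of the 5824 protein-coding genes bound in both (93.5%). For the strongest overlapping peak of each gene, the distance between the summits of the lines ranged from 18 to 447 bp with a median of 59 bp over the 18 genes. Genes bound in both lines had gene-end fold enrichments in the KARPAS-45 list of 4.18 to 47.4 (median 10.5, n = 18), and the 10 bound in KARPAS-45 only had 3.65 to 18.5 (median 6.14), so the ranges overlapped. The median over all 28 bound members was 8.81 in KARPAS-45, where all bound protein-coding genes had 7.16, and 6.69 over 18 members in PER-117, where all bound genes had 5.80.

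**Figure D2:**
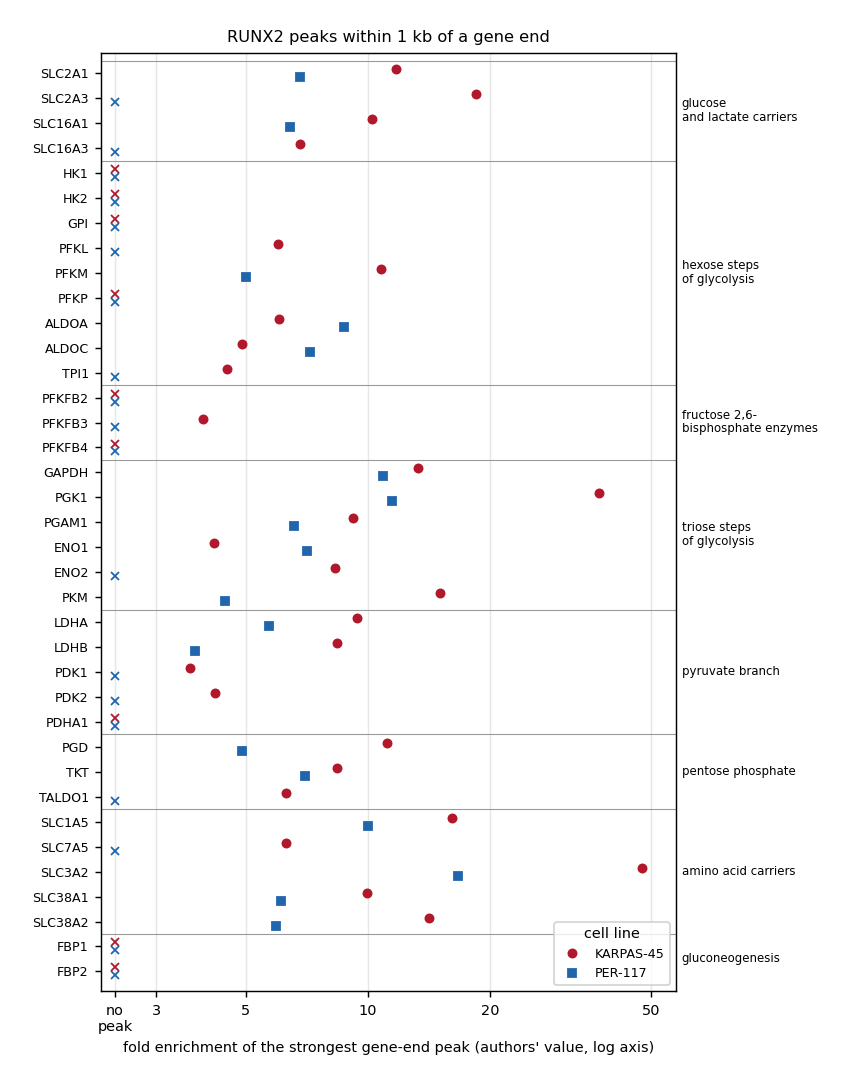
Fold enrichment of the strongest RUNX2 peak within 1 kb of a gene end (authors' value, log axis) for each of the 37 genes (rows, grouped by pathway step) in KARPAS-45 (red circles) and PER-117 (blue squares), 1 library each. Crosses mark genes with no such peak. SLC3A2 (47.4 and 16.6) and PGK1 (37.1 and 11.5) have the highest values in both lines, and 9 genes have crosses in both.

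Promoter sequences were at hand for 34 of the 37 genes, in the RefSeq promoter table of GRCh38.p14, which gives the 250 bases before and the 50 bases after each annotated start. In 5 of them (ALDOA, ALDOC, LDHA, PGK1 and GAPDH) the RUNX2 summits of both lines fell inside these 300 bases. Of the 5, 3 hold TGTGGT or its reverse complement ACCACA, the only form of the RUNX core that was searched. The sequences below show in capitals where this form stands in those 3. PGK1 is added as the strongest promoter site without TGTGGT or ACCACA. Its capitals mark ACGTG or CACGT, the core bound by hypoxia-inducible factors. Each sequence runs 5′ to 3′ on the strand of its gene.
ALDOA, chr16:30064029-30064328, plus strand: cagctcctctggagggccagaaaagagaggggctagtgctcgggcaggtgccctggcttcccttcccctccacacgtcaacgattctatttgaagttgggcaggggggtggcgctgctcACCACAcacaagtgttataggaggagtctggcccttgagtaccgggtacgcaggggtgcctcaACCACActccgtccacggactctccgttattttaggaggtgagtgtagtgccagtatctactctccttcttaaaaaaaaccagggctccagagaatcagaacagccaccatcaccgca
ALDOC, chr17:28576846-28577145, minus strand: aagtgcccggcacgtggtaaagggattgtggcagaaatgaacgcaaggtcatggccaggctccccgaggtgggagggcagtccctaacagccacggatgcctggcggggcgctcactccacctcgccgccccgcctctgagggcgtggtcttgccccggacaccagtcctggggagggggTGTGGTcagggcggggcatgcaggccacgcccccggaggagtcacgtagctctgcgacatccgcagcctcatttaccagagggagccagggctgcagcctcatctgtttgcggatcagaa
LDHA, chr11:18394313-18394612, plus strand: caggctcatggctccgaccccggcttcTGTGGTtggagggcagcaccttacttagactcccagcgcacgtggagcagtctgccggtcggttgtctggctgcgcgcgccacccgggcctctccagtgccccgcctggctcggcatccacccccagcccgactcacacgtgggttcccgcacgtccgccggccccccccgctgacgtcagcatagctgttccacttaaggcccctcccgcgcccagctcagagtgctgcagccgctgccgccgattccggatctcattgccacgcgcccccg
PGK1, chrX:78103998-78104297, plus strand: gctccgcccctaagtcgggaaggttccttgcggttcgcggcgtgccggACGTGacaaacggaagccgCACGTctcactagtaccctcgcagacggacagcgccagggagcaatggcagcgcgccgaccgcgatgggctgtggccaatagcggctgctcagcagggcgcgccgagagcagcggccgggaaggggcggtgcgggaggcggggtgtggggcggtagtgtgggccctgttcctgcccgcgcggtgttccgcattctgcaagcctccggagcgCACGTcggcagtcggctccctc

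The middle of the RUNX core nearest to each summit lay 22.5 bp from the KARPAS-45 summit and 10.5 bp from the PER-117 summit in ALDOA, whose sequence holds a pair of cores, and each summit is nearest to a different one. The distances were 9.5 and 38.5 bp in ALDOC, and 62.5 and 105.5 bp in LDHA. A core stood on either strand in 6 of the 34 member promoters (17.6%), those of ALDOA, ALDOC, HK2, LDHA, PGAM1 and TKT, and in 10.8% of the 15812 protein-coding promoters of the table. Of the 16 members with RUNX2 at the start in both lines 5 held one (31.2%), against 11.3% of the 4621 protein-coding genes in that state. RUNX2 was called within 1 kb of the start and the core was searched in 300 bases, so a core need not lie at a peak. In PGAM1 no summit of either line lay in these bases, and in TKT only that of KARPAS-45 did. No interval was computed for these shares. Of the 9 members with RUNX2 at the start in neither line 1 held a core, HK2. The E-box CACGTG was present in 4 member promoters (11.8%) against 8.87% of all and 11% of those acetylated at the start in both lines. The shorter ACGTG, which every E-box contains, was present in 10 (29.4%) against 23.7% and 28.5%. A match is a description of letters, most bound member promoters held no TGTGGT in these 300 bases, and the member promoters were richer in G and C (median 69.8%) than all promoters (62.7%).

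The first step is entry of glucose and exit of lactate. SLC2A1 (GLUT1), the main glucose carrier of dividing cells, lies at chr1:42925353-42958868 and had 6 RUNX2 peaks in its span plus 10 kb in KARPAS-45 against 5 in PER-117. At its start it had peaks with fold enrichments of 11.2 in KARPAS-45 against 4.91 in PER-117, and at its far end 11.7 and 6.81 (−log10 q of 31.0 and 15.9). The strongest peaks lay between these, inside the gene, as a pair of sites in each line. KARPAS-45 had 28.4 and 20.3 there, and PER-117 had 5.88 at a summit 78 bp from that of the 28.4 peak and 15.3 at a summit 201 bp from that of the 20.3 peak. All of these summits were acetylated in both lines. H3K27ac covered 34.7 kb of the window in KARPAS-45 (64.9%) and 19.3 kb in PER-117 (36.1%).

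The other glucose carrier of the set, SLC2A3 (GLUT3), differed between the libraries. Its gene-end peak in KARPAS-45, 258 bp beyond the span, had a fold enrichment of 18.5 (−log10 q 48.4), the highest of the members bound in KARPAS-45 only. PER-117 had 0 RUNX2 peaks in the span plus 10 kb. The gene end was acetylated there over 2496 bp, against 3268 bp in KARPAS-45, but the position of the KARPAS-45 summit lay outside H3K27ac in PER-117. SLC16A1 (MCT1), which carries lactate in either direction, was bound in both lines with 10.2 and 6.40, at summits inside acetylated chromatin. SLC16A3 (MCT4), the lactate exporter of glycolytic cells, was bound in KARPAS-45 only, at its far end with 6.81, where the end of CSNK1D also lies within 1 kb of the peak. KARPAS-45 also had a peak of 3.89 at the annotated start, which lies inside the span, and PER-117 had 0 in the whole window.

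Of the 9 genes from hexokinase to triose phosphate isomerase, 5 were bound in KARPAS-45 against 3 in PER-117, while 7 and 8 were acetylated. Of all protein-coding genes 48.3% and 32.5% were bound, and 61% and 55.5% were acetylated. The hexokinases, which trap glucose by phosphorylation, were bound at an end in neither line but held peaks inside. HK1, the broadly expressed form, spans chr10:69270000-69401882 and held 9 peaks in its window in KARPAS-45, the most of any member, with fold enrichments from 3.17 to 15.6, and 2 in PER-117. Only a site beyond its far end overlapped between the lines (5.44 and 8.49). Its ends were unacetylated, yet H3K27ac covered 51.9 kb of its window in KARPAS-45 and 22.7 kb in PER-117. A single annotated start per gene was used, for HK1 the upstream end of the span, so any further start inside the gene was not examined.

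HK2, the inducible hexokinase, was the single member whose RUNX2 peaks were all in PER-117. The 5 peaks lay inside the gene with fold enrichments of 3.88 to 7.17, 4 of them in acetylated chromatin, and KARPAS-45 had 0 in the span plus 10 kb. H3K27ac covered 15.6 kb of the window in PER-117 and 4.86 kb in KARPAS-45, the reverse of the order of the whole lists. HK2 was also acetylated at an end in both lines, over 1982 and 1513 bp. In this state, with RUNX2 in the span window of PER-117 only, stood 1 of 37 members and 3.16% of all protein-coding genes.

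GPI, the next enzyme, was bound at an end in neither line, and its single peak (5.78, KARPAS-45) lay in the upstream flank. At the annotated start, which lies inside the span, it was acetylated in both lines, over 1372 bp in KARPAS-45 and 3784 bp in PER-117, so the difference between the lines at its span ends did not hold there. The phosphofructokinases carry out the committed step and differed from each other. PFKM, the muscle form, had overlapping start peaks of 10.8 (−log10 q 35.2) and 5.00 in both lines, which also lie within 1 kb of the end of SENP1. PFKL, the liver form, had a start peak in KARPAS-45 only (6.005, −log10 q 7.38), near the end of AIRE as well. PFKP, the platelet form, had no gene-end peak in either line, and its H3K27ac at the end measured 1971 bp in KARPAS-45 and 451 bp in PER-117.

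The aldolases split the hexose into trioses, and ALDOA and ALDOC were among the 3 bound members whose strongest gene-end peak had a larger deposited fold enrichment in PER-117. At its start ALDOA had 5.49 in KARPAS-45 against 8.71 in PER-117 (−log10 q 10.4 and 20.5), with summits 51 bp apart, and a second shared site, 1403 and 1204 bp after the start, had 6.02 and 6.60 (9.61 and 14.6). ALDOC had 4.88 and 7.19 (5.29 and 13.6). The lists were scaled separately, so these values rank each site among its own list, in which the ALDOA start peak stood within the upper 61.4% in KARPAS-45 against 24% in PER-117. The ALDOC summits, 77 and 106 bp before the start, lay outside H3K27ac in both lines, although the PER-117 summit lay at the very edge of a region of 870 bp that its peak overlapped, and KARPAS-45 had a region of 1802 bp on the same side. Wider regions, of 2574 and 1704 bp, lay at the other end of the gene. The end of SPAG5 is within 1 kb of the start peaks. TPI1, which interconverts the trioses, was bound at its start in KARPAS-45 only (4.49), and a pair of sites in its downstream flank was shared by the lines (KARPAS-45 6.81 and 7.24, PER-117 5.35 and 6.79).

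Of the 3 PFKFB enzymes, which set the level of the phosphofructokinase activator fructose 2,6-bisphosphate, 1 was bound in KARPAS-45 against 0 in PER-117 (48.3% and 32.5% of all genes). PFKFB3, known as the form of highest kinase activity, had a start peak of 3.93 in KARPAS-45 only, and a peak of 25.1 further upstream, 9714 bp before the start, that lay outside H3K27ac and was also not called in PER-117. PFKFB2 and PFKFB4 had no gene-end peak, and each had a shared site just beyond its far end. The PFKFB2 site, 3885 bp beyond, had 17.8 in KARPAS-45 against 18.5 in PER-117, with summits 13 bp apart, and was acetylated in PER-117 only. PFKFB2 held no H3K27ac at all in its window in KARPAS-45 and 6.96 kb in PER-117. The PFKFB4 site, 2661 bp beyond the span end, had 35.7 and 13.8 with summits 15 bp apart, and lay outside H3K27ac in both lines, while the annotated start of PFKFB4 was acetylated in both over 2090 and 1573 bp.

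The 6 genes of the triose steps, which yield ATP and pyruvate, had gene-end RUNX2 throughout in KARPAS-45: 6 were bound in KARPAS-45 against 5 in PER-117. All 6 were acetylated in both lines, as were 51.9% of all genes. Of all genes 48.3% and 32.5% were bound in KARPAS-45 and PER-117, and of those acetylated in both lines 81.4% and 59.1%. PGK1, the first ATP-yielding kinase, had the strongest promoter peak of the set, 37.1 in KARPAS-45 (−log10 q 127, within the upper 1.29% of that list) and 11.5 in PER-117 (31.4, upper 13.7%). Its summits lay 201 and 222 bp before the start, in the left part of the sequence printed above, and no TGTGGT is in that window. The same left part holds TGCGGT, which was not searched as a form of the core. GAPDH, the oxidising step, had 3 start or upstream sites shared by the lines. In KARPAS-45 its gene-end RUNX2 also lay within 1 kb of the end of another protein-coding gene. At the start it had 9.24 in KARPAS-45 against 10.9 in PER-117, with summits 5 bp apart. The next site upstream, with a KARPAS-45 summit 829 bp before the start, had 13.3 and 7.46, and the farthest had 13.4 and 5.17. The larger deposited value was in PER-117 at the start and in KARPAS-45 at the sites upstream. The lists were scaled separately, so these values do not order the lines at a site. PGAM1, the mutase, had 9.21 and 6.57.

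ENO1, the main enolase, had start peaks of 4.18 and 7.08 in KARPAS-45 and PER-117. A stronger acetylated site, of 15.2, lay beyond its far end and was called in PER-117 only. PKM, pyruvate kinase, had start peaks of 15.1 and 4.45, and shared sites inside the gene (16.0 and 7.63) and upstream (8.37 and 6.05). ENO2, the enolase named for neurons, was the single gene of this group bound in KARPAS-45 only, with 8.31 at a summit 2 bp from its start, where LRRC23 also ends. PER-117 had 0 RUNX2 peaks in its span plus 10 kb and a narrower H3K27ac region at the end, 899 bp against 6175 bp.

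At the pyruvate branch, the lactate dehydrogenases were bound in both lines and the mitochondrial regulators were not. LDHA, which reduces pyruvate to lactate, had start peaks of 9.41 and 5.71 (−log10 q 18.4 and 11.4), and LDHB, the form that favours the reverse reaction, 8.40 and 3.74 at summits 447 bp apart. PDK1 and PDK2, the kinases that hold pyruvate dehydrogenase inactive, were bound in KARPAS-45 only, with 3.65 and 4.20, and PER-117 had 0 peaks in either window. PDK1 also held a peak of 34.1 in KARPAS-45, 31291 bp inside the gene and outside H3K27ac. PDK2 was acetylated in KARPAS-45 only, over 1838 bp at the start, and had no H3K27ac in its whole window in PER-117. PDHA1, the dehydrogenase subunit that these kinases act on, was the single member with no RUNX2 peak in its span plus 10 kb in either line (24.7% of all genes), although it was acetylated over 2160 and 1726 bp.

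The pentose phosphate genes were bound at 3 of 3 ends in KARPAS-45 and at 2 in PER-117, and all 3 were acetylated in both. Of all genes 48.3% and 32.5% were bound and 51.9% were acetylated in both lines, and of those acetylated in both 81.4% and 59.1% were bound. PGD, the second NADPH-yielding dehydrogenase, had 11.2 and 4.90, and TKT, transketolase, 8.41 and 6.98, with summits 204 and 252 bp before the start. TALDO1, transaldolase, had 3 start peaks in KARPAS-45, the strongest with 6.28, and 0 peaks in PER-117, where its end was acetylated over 2468 bp. In KARPAS-45 TKT had 1 of the widest gene-end regions of the set, 19794 bp, against 2937 bp in PER-117.

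The amino acid carriers were bound at 5 of 5 ends in KARPAS-45 and 4 of 5 in PER-117, with all 5 acetylated in both lines. SLC3A2 (CD98 heavy chain), the partner that brings SLC7A5 to the membrane, had the strongest gene-end peak of all 37 genes in either line. It lay at chr11:62855695-62856422 in KARPAS-45, with a fold enrichment of 47.4 (−log10 q 261, upper 0.459% of the list), and had 16.6 in PER-117 (84.9, upper 5.53%), with summits 57 bp apart. This site stood at the upstream end of the span, 25658 bp before the start of the promoter table, and the table start itself had weaker shared peaks of 7.18 and 3.55. SLC1A5 (ASCT2), a glutamine exchanger, had 16.1 and 9.99 at summits 275 and 296 bp before the start.

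SLC38A1 and SLC38A2, sodium-coupled importers of glutamine and other neutral amino acids, were bound in both lines. SLC38A1 had 9.92 and 6.09 at its span end, and a stronger acetylated site inside the gene, 22.6 and 16.0 with summits 7 bp apart. SLC38A2 had 14.1 and 5.94 at its start. SLC7A5 (LAT1), the leucine carrier, differed between the libraries in both marks: KARPAS-45 had 8 RUNX2 peaks in its window, all in acetylated chromatin and the one at the start with 6.28, and PER-117 had 0. H3K27ac covered 58.0 kb of that window in KARPAS-45 (97.4%), in a gene-end region of 44945 bp, and 15.3 kb in PER-117 (25.7%), where the gene-end region measured 1841 bp.

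**Figure D3:**
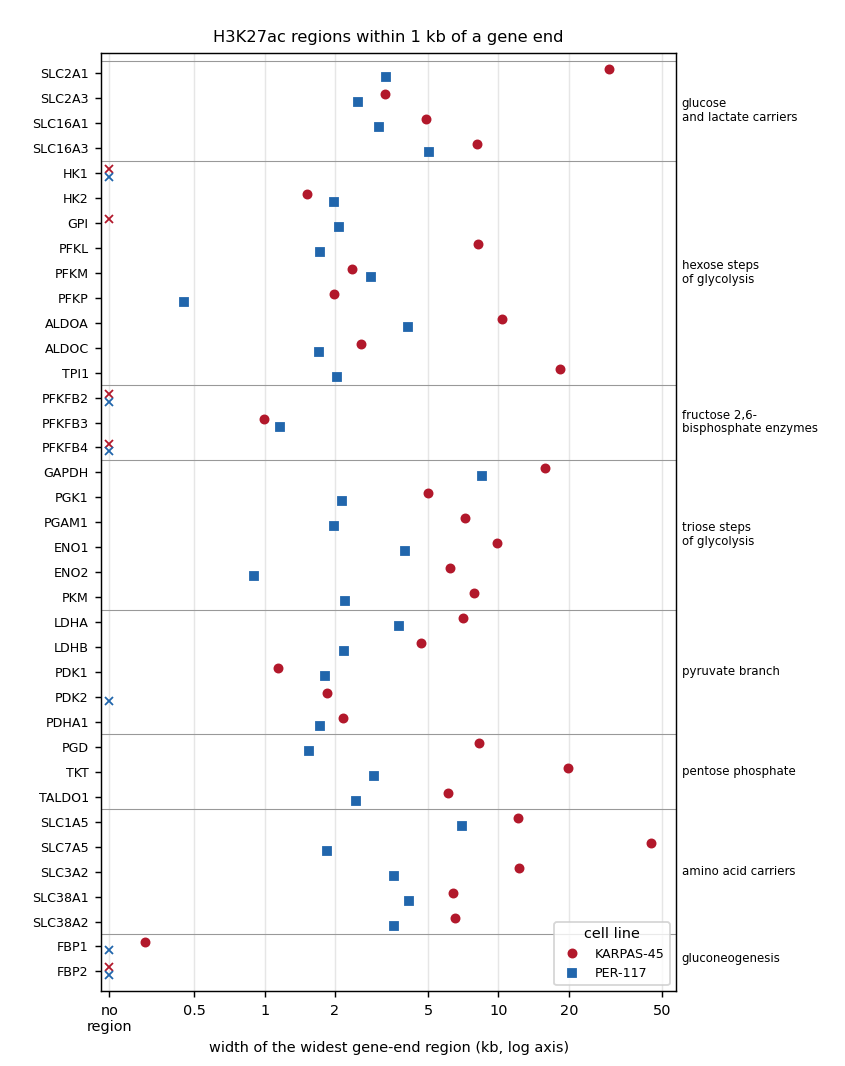
Width of the widest H3K27ac region within 1 kb of a gene end (kb, log axis) for each of the 37 genes (rows, grouped by pathway step) in KARPAS-45 (red circles) and PER-117 (blue squares), 1 library each. Crosses mark genes with no such region. The widest lie at SLC7A5 in KARPAS-45 (44945 bp) and at GAPDH in PER-117 (8506 bp).

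Acetylated regions at the members' ends were wide in KARPAS-45. The widest one per gene had a median of 6446.5 bp over the 32 acetylated members, against 3092 bp over all acetylated protein-coding genes and 3356 bp over those acetylated in both lines. In PER-117 the medians were 2205, 1887 and 1907 bp. The KARPAS-45 list holds wider regions throughout (median 1270 bp against 816 bp), and its region calls reached down to a −log10 q of 0.431. ALDOA, TPI1 and GAPDH each lay whole within 1 H3K27ac region in KARPAS-45, as did 2.63% of protein-coding genes, and GAPDH did in PER-117, as did 0.991%. These are short genes, and a region can cover them by its width alone.

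The gluconeogenic pair FBP1 and FBP2, which run the phosphofructokinase step backward, were bound at an end in neither line, the state of 48.3% of all protein-coding genes. FBP2, the muscle form, had no H3K27ac in its window in either line, and yet the strongest RUNX2 site near any member lay 4111 bp beyond its span. That site, chr9:94554308-94555058 in KARPAS-45, ranked 4 of 42911 peaks there, and the matching PER-117 peak, with a summit 5 bp away and a fold enrichment of 30.8, ranked 115 of 21027. FBP1, the liver form, held a peak of 45.8 inside the gene in KARPAS-45, which was outside H3K27ac and not called in PER-117. Its acetylated region in KARPAS-45 was 307 bp wide, the narrowest gene-end region of the set.

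**Figure D4:**
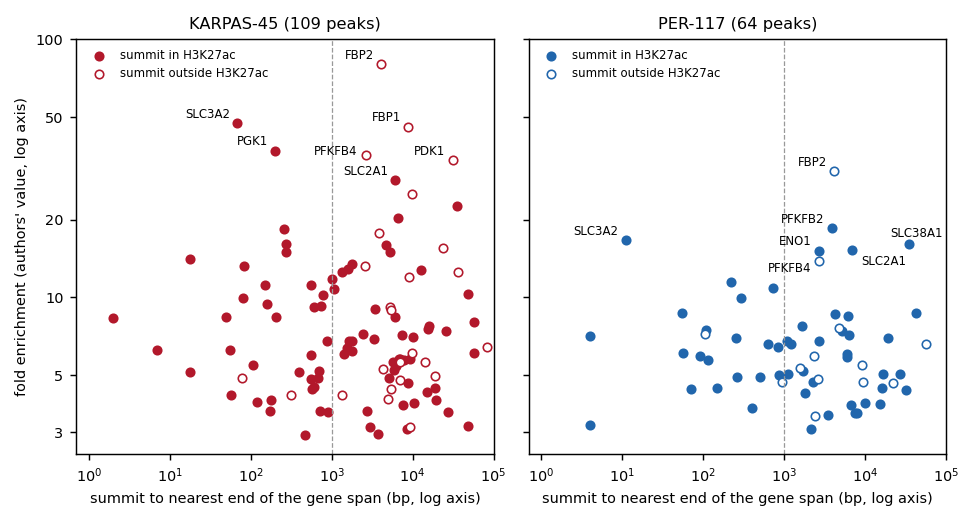
Each RUNX2 peak within the span plus 10 kb of the 37 genes, by the distance of its summit from the nearest end of the gene span (bp, log axis) and its fold enrichment (authors' value, log axis), in KARPAS-45 (left, 109 peaks) and PER-117 (right, 64 peaks), 1 library each. Filled points lie in an H3K27ac region of the same line, open points outside, and the dashed line marks 1 kb. The 7 strongest peaks of each line are named, and FBP2 (80.1 and 30.8) is the highest in both.

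Over the wider window nearly every member had a peak. RUNX2 was called in the span plus 10 kb of 35 genes in KARPAS-45 (72.2% of all protein-coding genes) and of 26 in PER-117 (54.9%). Both lines had one at 25 genes (51.7% of all), and HK2 in PER-117 alone and PDHA1 in neither line were given above. KARPAS-45 alone had one at 10 genes (20.5% of all): ENO2, FBP1, GPI, PDK1, PDK2, PFKL, SLC16A3, SLC2A3, SLC7A5 and TALDO1. H3K27ac was present there at 35 genes in KARPAS-45 (74% of all) and 34 in PER-117 (69.4%), with 33 in both lines (65%), FBP1 and PDK2 in KARPAS-45 alone (8.93%), PFKFB2 in PER-117 alone (4.39%) and FBP2 in neither (21.6%). The members had a median span of 27.3 kb, close to the 27.2 kb of genes acetylated in both lines.

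The 109 KARPAS-45 peaks and 64 PER-117 peaks of these windows were sorted by position. At annotated starts 31 of 33 KARPAS-45 summits and 18 of 19 PER-117 summits lay in H3K27ac regions of the same line. At the other gene ends 10 of 10 and 6 of 7 did, and inside the genes 25 of 36 and 15 of 19. In the flanks 18 of 30 and 12 of 19 did. The share for all RUNX2 peaks of a list was 65.2% for KARPAS-45 against 75.6% for PER-117. Among the 10 strongest member peaks, 5 were acetylated in KARPAS-45 against 8 in PER-117. Over the whole lists, peaks at least as strong were acetylated at 69.7% in KARPAS-45 against 77.5% in PER-117. The unacetylated strong sites in KARPAS-45 were those near FBP2, PFKFB4 and PFKFB3 and inside FBP1 and PDK1. Of these the FBP2 and PFKFB4 sites were called in both lines and the other 3 in KARPAS-45 only.

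Genes of the same pathways outside the set were counted in the same way. Of 29 other broadly expressed genes, 23 were bound in KARPAS-45 against 17 in PER-117, 16 of them in both, and 26 were acetylated in each line. Of all protein-coding genes 48.3% were bound in KARPAS-45, 32.5% in PER-117 and 29.2% in both, and 61% and 55.5% were acetylated. The strongest bound in both were SLC16A7 (MCT2), a lactate carrier (19.1 and 13.0), RPE, the ribulose phosphate epimerase (18.6 and 9.78), and TIGAR, a fructose bisphosphatase that favours the pentose phosphate pathway (9.62 and 11.0). Those bound in KARPAS-45 only were H6PD, LDHD, PDK3, PGM1, PGM2, SLC2A6 and SLC7A1, with 4.01 to 10.2 at a gene end. Of these, H6PD also had a peak at its annotated start, inside the span, that both lines shared (20.2 and 13.0, summits 19 bp apart). PDHB was bound in PER-117 only, with 3.73.

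The forms of these enzymes and carriers that are restricted to liver, muscle, testis or other tissues were counted apart. Of 21 such genes, 6 were bound in KARPAS-45 against 4 in PER-117 (48.3% and 32.5% of all genes), and 8 and 7 were acetylated (61% and 55.5%). Acetylated in neither line were 13 (35.3% of all genes). Bound in both were ENO3, GAPDHS, PGAM2 and PKLR, and at ENO3, GAPDHS and PKLR the end of another gene (PFN1, TMEM147 and FDPS) lies within 1 kb of the peak. PGAM4, a copy of the mutase gene, was bound in KARPAS-45 with 8.72 and was not acetylated, and SLC2A4, the insulin-responsive glucose carrier, was bound there with 6.59. SLC16A8 was acetylated in KARPAS-45 only, over 448 bp. Liver and kidney genes such as G6PC1, PCK1 and SLC2A2 held neither mark at an end in either line.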

How the data were processed

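RUNX2 and H3K27ac chromatin immunoprecipitation sequencing of KARPAS-45 and PER-117 cells was used as deposited, 1 peak list per line and antibody. Per the submitters' processing notes, hg38 was the build, and MACS2 and STAR 2.4.2a were among the tools. What each tool did, with which settings and against which input, is not given in the sources used here, and the 3 inputs and the read depth were not analysed here. For every peak the authors deposited a display score, −log10 values of p and q, and fold enrichment as a linear ratio, to which the RUNX2 lists add a summit offset. RUNX2 lines with the same coordinates were merged, keeping the summit of largest fold.

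Gene spans came from the RefSeq gene table and starts, strands and promoters from the RefSeq promoter table, both of GRCh38.p14, the same build as hg38. All members matched the gene table by symbol, and 34 of 37 matched the promoter table. Exons, introns and untranslated regions were not resolved. A gene was called when at least 1 bp of a peak lay in the window. Shares have Wilson 95% intervals, which cover counting error only. No test was made, since each group is 1 library. Members, the further pathway genes, the markers and the alternatives were chosen with earlier results of these data known. Genes named are, per step, up to 3 bound in both lines (strongest first), all with a mark at an end in 1 line only, all without RUNX2 at an end, and the 3 with most peaks or acetylated bases in each line. For the further genes, those bound or acetylated in 1 line and the strongest 3 bound in both are named, and remaining names complete small counts, were set by the list of strongest peaks, or were chosen after their values were seen. Sequences shown are promoters with the summits of both lines, those with a TGTGGT first. Alternatives were a wider window, no flank, stricter −log10 q limits, the 5000 strongest peaks, wider regions, lists of equal covered length, midpoints and starts only, and, added after the data were seen, RUNX2 lists of equal length. The work was done in Python 3.11.15 with pandas 2.3.3, numpy 2.4.6, scipy 1.17.1 and, for plots, matplotlib 3.10.9. The window counts were tested on simulated data against a direct count. Some genes of the further lists and markers are not reported here by name.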

Additional observations from a re-analysis of the deposited data

How the results depend on the processing

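Of 68 recomputed values, 44 stayed within 1.5 times the reported count or within the interval of the reported share, and 24 did not. The 44 include values of PER-117 alone under settings that shorten only a KARPAS-45 list. Those values could not change, so the tally overstates how stable the results are. No paired analysis was possible because each line and antibody has 1 library. Stricter RUNX2 lists changed most. With −log10 q of 10 or more, 18 members were bound in KARPAS-45 (29.8% of all genes), 12 in PER-117 (17.2%) and 10 in both lines. The bound share of acetylated protein-coding genes was then 47.4% in KARPAS-45 against 30.3% in PER-117 (75.7% and 57.1% in the full lists). With the 5000 strongest peaks of each line, 4 members were bound in KARPAS-45 (6% of all genes), 4 in PER-117 (7.13%) and 3 in both. In the span plus 10 kb 13 and 10 members had a peak, and the bound shares of acetylated genes were 9.37% and 12.5%. With the KARPAS-45 RUNX2 list at the length of the PER-117 list, 18 members were bound in KARPAS-45, against 27.6% of all genes. The bound share of acetylated genes was 43.6%. With the KARPAS-45 H3K27ac list at the covered length of PER-117, 18 members were acetylated at an end in KARPAS-45, against 16% of all genes. In the span plus 10 kb 20 members were, and the bound share of acetylated genes was 82.8%. For the span plus 10 kb, and for genes bound in both lines, shares of all genes were not recomputed. Midpoints in place of whole regions gave 19 acetylated members in KARPAS-45, against 44.6% of all genes. The bound shares of acetylated genes in KARPAS-45 and PER-117 were 79% and 61.3% with a window of 2.5 kb. They were 76.9% and 58.8% with H3K27ac regions at a −log10 q of at least 2. With the wider regions of each list (above its median width) they were 79.9% and 61%. With starts only, the KARPAS-45 share was 77.8%. Fewer peaks or fewer regions explain the lower counts by construction. Otherwise the cause was not tested. Depth, which limits what a missing peak means, was not analysed here.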
